A study of Mus musculus with 10 samples.

Results

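The sorbin and focal adhesion actin adaptors are 8 genes whose proteins tie integrin adhesion sites to the actin cytoskeleton: Sorbs2, Sorbs3, Vcl, Zyx, Pxn, Tln1, Vasp and Palld. They were taken by name out of 18193 genes measured on the arrays. Each was read by 1 probe set, a group of short oligonucleotides for a transcript, chosen by its mean level over all 10 arrays, which had to be the highest among the probe sets that match that gene alone, and the others served as a check (20 probe sets in all). The list was drawn up with earlier results of these arrays known, and Sorbs2 is on it because it stood among the largest differences between the groups, so the values of Sorbs2 are a description and carry no test. The samples were cultured mouse lung fibroblasts, 5 arrays of carcinoma-associated fibroblasts (CAF), which live in the stroma of a carcinoma, and 5 arrays of fibroblasts from normal lung. Cells of both groups were isolated from lungs and grown with 10% serum for an expansion of 10 to 14 days, then kept overnight on 10 cm plates before total RNA was taken. The labels name the tissue and the cell type of each group and give no genotype, strain, age, tumour model or pooling of animals. The titles speak of biological replicates without saying that each came from its own animal, so the p-values measure the spread between these cultures. The CAF label codes all carry the prefix ls, while normal replicates 1 to 3 carry vs and normal replicates 4 and 5 carry ls, prefixes that the labels leave unexplained.

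A cell grips its surroundings through integrins, receptors whose inner ends are bound by talin. Talin under tension exposes sites for vinculin, and both then hold actin filaments, while paxillin collects kinases and other signalling proteins at the same place. Zyxin and VASP arrive where filaments are strained and promote the growth of new actin, palladin bundles filaments with alpha-actinin, and the sorbin family, which carries a sorbin homology domain and SH3 domains, links vinculin to kinases, the ubiquitin ligase Cbl and the cytoskeleton. Cultured fibroblasts on stiff plastic with serum are known for large focal adhesions and thick stress fibres.

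The sequences before the transcription starts are given first, since they show what letters the start regions of these genes share and do not share. RefSeq (GRCm38.p6) gave 10 promoter windows for 6 of the 8 members, all but Sorbs3 and Pxn. Sorbs2 has 3 annotated starts and its probe sets differ from each other below, so the 250 bases before each of its starts are shown first. The windows of Vcl, Zyx and the Palld start with an AP-1 motif are shown for contrast, because each holds a motif of a factor known to respond to serum or strain. Capitals mark the motifs searched on both strands: the CArG box bound by SRF, TGANTCA bound by AP-1 and CATTCC bound by TEAD factors.
Sorbs2 start 1 (chr8:45507538-45507787, plus strand): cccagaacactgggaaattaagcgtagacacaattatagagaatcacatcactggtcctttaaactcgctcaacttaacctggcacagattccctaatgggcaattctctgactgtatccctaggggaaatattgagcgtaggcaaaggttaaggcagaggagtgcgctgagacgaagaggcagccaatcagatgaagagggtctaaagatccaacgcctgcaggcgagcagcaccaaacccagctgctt
Sorbs2 start 2 (chr8:45627501-45627750, plus strand): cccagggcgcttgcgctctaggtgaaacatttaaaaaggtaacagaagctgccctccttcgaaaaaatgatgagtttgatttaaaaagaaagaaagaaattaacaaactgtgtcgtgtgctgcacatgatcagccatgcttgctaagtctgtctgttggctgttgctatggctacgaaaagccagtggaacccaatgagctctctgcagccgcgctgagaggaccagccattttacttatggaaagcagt
Sorbs2 start 3 (chr8:45661743-45661992, plus strand): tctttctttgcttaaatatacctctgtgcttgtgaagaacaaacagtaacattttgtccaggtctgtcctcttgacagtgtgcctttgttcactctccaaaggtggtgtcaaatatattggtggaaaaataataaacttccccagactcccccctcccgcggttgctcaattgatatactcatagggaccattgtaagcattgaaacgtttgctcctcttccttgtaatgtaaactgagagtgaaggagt
Vcl (chr14:20929148-20929397, plus strand): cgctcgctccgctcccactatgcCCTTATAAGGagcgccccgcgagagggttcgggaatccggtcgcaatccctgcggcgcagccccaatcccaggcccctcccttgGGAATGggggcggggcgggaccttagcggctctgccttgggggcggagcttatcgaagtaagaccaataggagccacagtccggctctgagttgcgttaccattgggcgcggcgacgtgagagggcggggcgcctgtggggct
Zyx (chr6:42349578-42349827, plus strand): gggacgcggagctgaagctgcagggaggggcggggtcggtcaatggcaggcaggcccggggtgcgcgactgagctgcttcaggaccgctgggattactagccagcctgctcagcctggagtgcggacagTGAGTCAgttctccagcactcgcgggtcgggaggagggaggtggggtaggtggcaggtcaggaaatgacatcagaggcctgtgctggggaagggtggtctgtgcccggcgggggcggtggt
Palld start 1 (chr8:61591140-61591389, minus strand): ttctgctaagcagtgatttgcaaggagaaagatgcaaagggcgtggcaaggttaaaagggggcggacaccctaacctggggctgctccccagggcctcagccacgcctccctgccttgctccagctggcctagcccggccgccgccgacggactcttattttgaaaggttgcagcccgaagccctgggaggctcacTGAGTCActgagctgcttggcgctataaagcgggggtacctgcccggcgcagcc

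None of these letters occurred in the 3 Sorbs2 windows, nor in those of Tln1, Vasp and Palld start 3, which says only that they are not in these 250 bases. The Vcl window holds the CArG box CCTTATAAGG, 227 to 218 bases before the start, and the letters CATTCC on the other strand. Zyx and Palld start 1 each hold TGAGTCA, and Palld start 2 holds CATTCC. A CArG box occurs in 1.47% of the 32851 windows of the table, TGANTCA in 6.75% and CATTCC in 12.6%. The Sorbs2 windows had a GC content of 48.8%, 45.6% and 41.6% with 7, 7 and 3 CpG dinucleotides. The Vcl window had 67.2% with 24 and the Zyx window 67.6% with 15, but Palld start 3 had 43.2% with 2, within the range of GC content of the Sorbs2 windows. Tln1 and Vasp had 55.6% and 57.2% with 12 each, and the medians of the table were 52.4% and 6.

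The arrays were first checked for the cells they hold. Levels are RMA log2 expression, a scale on which a difference of 1 is a doubling and which has no 0, so that a low value may be background. Fibroblast markers were bright in both groups, with a mean over the 12 genes of 12.7 to 14.0 on CAF arrays and 12.7 to 14.5 on normal arrays, led by Col1a2, a collagen chain, and Vim, the filament protein vimentin. Markers of macrophages, led by Lyz2 and Tyrobp, were also bright, with means over 10 genes of 10.5 to 13.0 on CAF arrays and 9.65 to 13.1 on normal arrays. The 5 neutrophil markers had means of 7.09 to 8.03 on CAF arrays and 6.71 to 12.7 on normal arrays, the highest being normal replicate 3. Mesothelial means over 5 genes ran from 6.63 to 8.78 on CAF arrays and from 5.88 to 10.1 on normal arrays. Endothelial means stayed between 5.99 and 6.15 on CAF arrays and between 6.09 and 6.24 on normal arrays. Means over 12 heart and skeletal muscle markers, tissues in which Sorbs2 is abundant, lay between 6.04 and 6.34 on CAF arrays and between 6.16 and 6.31 on normal arrays. Lymphocyte, epithelial, smooth muscle and Schwann marker means lay between 6.39 and 9.34 on CAF arrays and between 6.67 and 9.30 on normal arrays, and limma called 0 of the 78 marker genes, of which 18 had an unadjusted p under 0.05, as did 22.3% of all genes. Single markers within these lists differed in opposite directions, and the following were picked after their values were seen. Kcnj8, a channel gene of pericytes, had 8.09 to 9.22 on CAF arrays and 6.88 to 8.06 on normal arrays, a difference of 1.32 ± 0.28 (SE; adjusted p = 0.0589), and S100b, a Schwann cell marker, had 7.96 to 9.12 on CAF arrays and 6.73 to 7.79 on normal arrays, a difference of 1.37 ± 0.26 (adjusted p = 0.0518). Myh11, smooth muscle myosin, had 1.12 ± 0.41 (adjusted p = 0.152) with overlapping groups. Of the other pericyte and smooth muscle markers, Rgs5, Cspg4 and Des had 0.90, 0.27 and 0.14 and Abcc9 0.00033. Notch3, Smtn and Mcam had -0.25, -0.53 and -0.66. The other Schwann and neural markers, Sox10, Gfap and Mbp, had -0.10, -0.16 and -0.50. Mesothelial Lrrn4 had the largest marker difference, -2.99 ± 1.15 (adjusted p = 0.170), and epithelial Epcam had -0.42 ± 0.09 (adjusted p = 0.0654). Medians of those lists were -0.20 and -0.31. Among the muscle markers Nebl, a nebulin relative of the heart, had 6.16 to 6.82 on CAF arrays and 5.90 to 6.06 on normal arrays (adjusted p = 0.0930) and Ldb3, a Z-disc gene, had a difference of 0.67, against -0.36 for Ckm and -0.28 for Myh7. The median difference of the 12 muscle markers was -0.13. The part of all these markers in the levels of the adaptors was not tested. With whole cultures on an array, fewer cells of a type and less RNA per cell cannot be told apart.

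Setting CAF beside normal lung fibroblasts answers whether genes of the adhesion machinery were expressed at another level in the CAF cultures. Sorbs2 stood far above its normal level on every CAF array, whereas the genes for talin, vinculin, zyxin, paxillin, palladin and the related adaptor vinexin had overlapping values. Vasp was the other member that leaned one way, with 4 of 5 CAF arrays below every normal array. Over all genes limma called 137, or 0.753%, at an adjusted p under 0.05, and 1 of the 8 members was among them, Sorbs2, which was put on the list for that difference. With the label prefix as a term, limma called 0 genes and 0 members, where 2649 genes had an unadjusted p under 0.05. With a replicate block limma also called 0 genes and 0 members, where 3017 genes had an unadjusted p under 0.05. Without CAF replicate 2 it called 153 genes and 2 members, without normal replicate 2 it called 166 genes and 1 member, and without any other array it called 0 to 63 genes and 0 members, where 3003 to 4050 genes had an unadjusted p under 0.05. The 5 CAF and 5 normal values did not overlap in 7.16% of all genes and in 1 of the 8 members, again Sorbs2. With every probe set tested singly, 1.34% of 45037 were called and 1 of the 20 of these genes, the same Sorbs2 probe set. The median difference of the members, CAF minus normal, was -0.01 with 4 above 0 and 4 below, against a median of -0.04 over all genes and 0.08 over the genes above the median level.

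**Figure D1:**
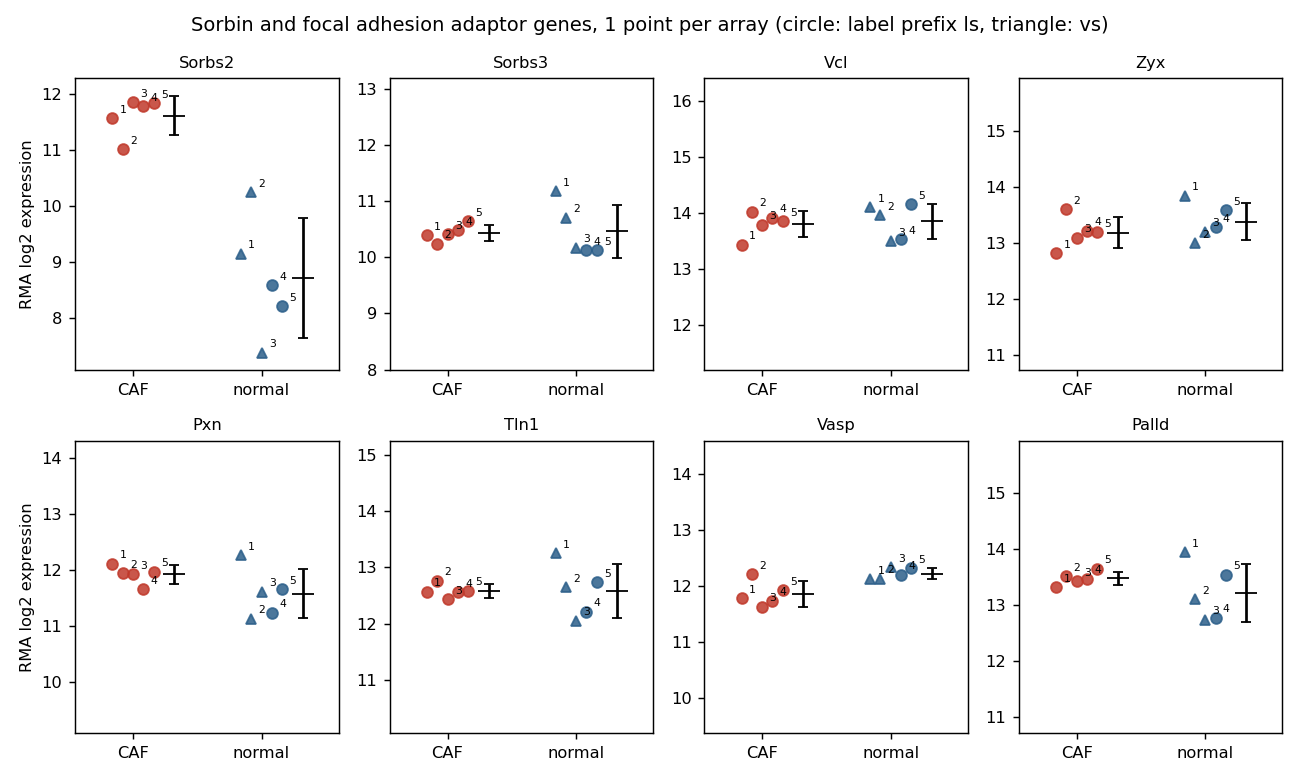
RMA log2 expression (y axis) of the 8 genes on each array, CAF at left and normal at right, with the replicate number beside each point and the group mean ± SD as a black bar; circles have label prefix ls and triangles vs, and every panel spans the same number of log2 units. Sorbs2, listed for its difference, is the gene whose groups stand apart, with CAF arrays from 11.02 to 11.85 and normal arrays from 7.39 to 10.25.

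Sorbs2 encodes an adaptor, also called ArgBP2, that binds vinculin and Abl kinases and sits along stress fibres and muscle Z-discs. Its level was 11.57, 11.02, 11.85, 11.78 and 11.83 on CAF replicates 1 to 5, against 9.15, 10.25, 7.39, 8.59 and 8.22 on normal replicates 1 to 5. The CAF arrays lay close together except for a lower replicate 2, the normal arrays were scattered, and the lowest CAF array was above the highest normal array. CAF arrays averaged 11.61 ± 0.35 and normal arrays 8.72 ± 1.07 (SD, n = 5 each), a difference of 2.89 or 7.42-fold. Sorbs2 was listed for the size of this difference, so its rank follows from that choice. Of the 18193 genes, 12, Sorbs2 included, had a difference at least as large and positive. With normal arrays of prefix ls alone the difference was 3.21 and with those of prefix vs 2.68, and without any 1 array it was 2.56 to 3.27. Normal replicates 2 and 1, the normal arrays highest in Sorbs2, lay at opposite ends in these markers: replicate 2 had the lowest macrophage mean of all arrays, 9.65, and the lowest mesothelial mean, 5.88, while replicate 1 had the highest of both, 13.1 and 10.1. CAF replicate 1 had a macrophage mean of 13.0. Normal replicate 3, lowest in Sorbs2, had a neutrophil mean of 12.7. The part of these other cells in the Sorbs2 levels was not tested. The scatter of Sorbs2 among normal arrays was wide: 4.42% of genes had a normal SD at least as large.

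The 4 probe sets of Sorbs2 did not behave alike. Probe set 1437197_at gave the values above. Probe set 1441624_at gave 6.74, 6.07, 6.98, 6.67 and 6.53 on the CAF arrays, against 5.75, 6.24, 5.55, 5.65 and 5.62 on the normal arrays. It was higher in CAF by 0.84, with the groups overlapping only through CAF replicate 2 and normal replicate 2, the same arrays that came nearest to each other in 1437197_at. Probe set 1446744_at averaged 6.69 ± 0.08 on CAF and 6.81 ± 0.18 on normal arrays, a difference of -0.12. Probe set 1431192_at had 5.09 ± 0.07 in CAF and 5.18 ± 0.09 in normal fibroblasts, a difference of -0.09. Apart from 1437197_at these probe sets were dim. Their group means ran from 5.09 to 6.81, where the array medians were 6.73 to 6.79, so their values may be background. The mean of the 4 probe sets, dim ones included, differed by 0.88. The files do not say which transcript of Sorbs2, or which of its starts, each probe set reads.

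**Figure D2:**
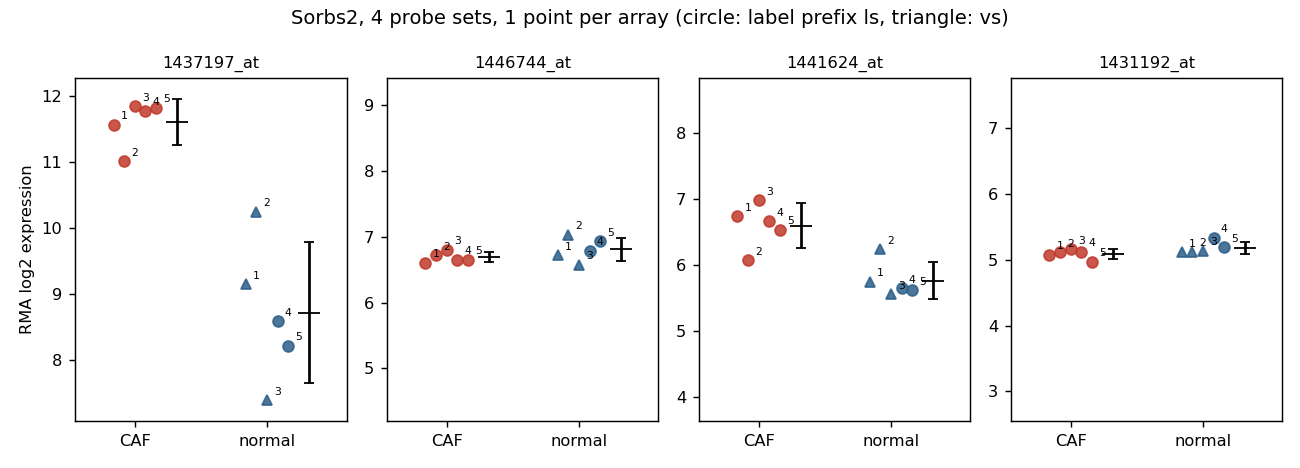
RMA log2 expression (y axis) of the 4 Sorbs2 probe sets on each array, CAF at left and normal at right, with replicate numbers, group mean ± SD as a black bar, and equal log2 spans in all panels. Probe set 1437197_at separates the groups by 2.89, 1441624_at by 0.84, and the others by -0.12 and -0.09. The probe sets other than 1437197_at were dim, and their values may be background.

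Sorbs3, the gene of vinexin, the sorbin relative named for its binding to vinculin, showed no such shift. Its level was 10.39, 10.24, 10.41, 10.48 and 10.64 on CAF replicates 1 to 5, against 11.18, 10.71, 10.17, 10.13 and 10.13 on normal replicates 1 to 5. All CAF values lay inside the normal range, above normal replicates 3 to 5 and below normal replicates 1 and 2. The difference was -0.03 ± 0.20 (SE; limma adjusted p = 0.943), with a 95% interval of -0.49 to 0.42. It was 0.31 against the ls normal arrays and -0.25 against the vs normal arrays, so its sign depends on which normal arrays are used.

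Tln1 encodes talin-1, which binds the integrin tail and activates the receptor. Its level was 12.57, 12.77, 12.44, 12.56 and 12.58 on the CAF arrays, against 13.25, 12.65, 12.05, 12.21 and 12.74 on the normal arrays. The CAF arrays lay in the middle of a wider normal range. The difference was 0.0023 ± 0.20 (SE; adjusted p = 0.996), with a 95% interval of -0.45 to 0.45. The other probe sets had -0.43 ± 0.35 and -0.34 ± 0.22 (adjusted p = 0.489 and 0.379 among all probe sets) and the sign at 1448402_at turned after quantile normalisation, against the vs normal arrays, and without CAF replicate 2, normal replicate 3 or normal replicate 4.

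Vcl encodes vinculin, the actin-binding protein that talin recruits under load. Its level was 13.43, 14.02, 13.79, 13.91 and 13.86 on the CAF arrays, against 14.10, 13.96, 13.50, 13.53 and 14.16 on the normal arrays. The groups overlapped over nearly their whole range. The difference was -0.05 ± 0.16 (SE; adjusted p = 0.882), with a 95% interval of -0.41 to 0.31, and its other probe set had -0.13 ± 0.24. In Zyx, the gene of zyxin, a LIM domain protein of strained filaments, the CAF arrays had 12.82, 13.60, 13.09, 13.21 and 13.19, against 13.84, 12.99, 13.19, 13.28 and 13.58 on the normal arrays. These groups overlapped as well, with a difference of -0.19 ± 0.18 (SE; adjusted p = 0.551) and a 95% interval of -0.60 to 0.21.

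Vasp encodes an actin polymerase of the Ena/VASP family that zyxin brings to adhesions. Its level was 11.78, 12.21, 11.63, 11.74 and 11.92 on the CAF arrays, against 12.12, 12.13, 12.33, 12.20 and 12.32 on the normal arrays. CAF replicate 2 lay within the normal range and the other CAF arrays lay below it. The difference was -0.36 ± 0.11 (SE, 1.29-fold lower in CAF) with a 95% interval of -0.61 to -0.12, and among all genes it missed the threshold (adjusted p = 0.106, unadjusted p = 0.00765). Without CAF replicate 2 the difference was -0.45 and passed (adjusted p = 0.0498), and with array weights it was -0.41 and passed (adjusted p = 0.0438). Under the other alternatives its adjusted p ran from 0.0956 to 0.323, the highest with the label prefix as a term. The ls normal arrays gave -0.40 and the vs normal arrays -0.34. Vasp had 1 probe set, so there was no other reading of it.

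Pxn encodes paxillin, the scaffold on which focal adhesion kinases assemble. Its level was 12.11, 11.94, 11.92, 11.65 and 11.97 on the CAF arrays, against 12.26, 11.13, 11.61, 11.23 and 11.65 on the normal arrays. Most CAF arrays were above most normal arrays, but normal replicate 1 was the highest of all 10. The difference was 0.34 ± 0.20 (SE; adjusted p = 0.331), with a 95% interval of -0.10 to 0.78, and the other probe sets had 0.05 ± 0.21 and 0.22 ± 0.22. The chosen probe set has the suffix _s_at, given to probes that may also match related transcripts.

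Palld encodes palladin, which cross-links actin bundles and is known from myofibroblasts. Its level was 13.32, 13.51, 13.42, 13.47 and 13.65 on the CAF arrays, against 13.94, 13.10, 12.74, 12.77 and 13.54 on the normal arrays. The CAF arrays spanned a narrow band inside the normal range. The difference was 0.25 ± 0.22 (SE; adjusted p = 0.515), with a 95% interval of -0.23 to 0.74. Of its other probe sets, 1427228_at had 0.26 ± 0.25, and 1440693_at and 1440635_at had -0.21 ± 0.12 and -0.23 ± 0.11 (adjusted p = 0.318 and 0.260 among all probe sets).

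**Figure D3:**
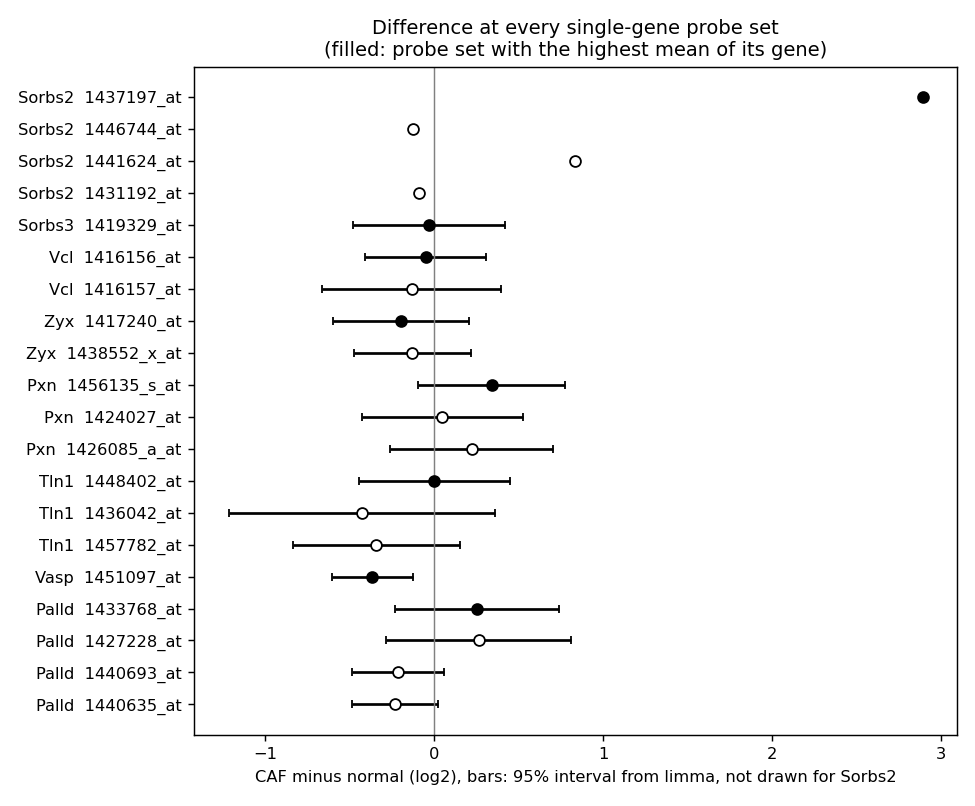
Difference in CAF minus normal (x axis, log2) at each of the 20 single-gene probe sets (rows), with the 95% interval from limma except for Sorbs2; filled points are the probe set with the highest mean of its gene. The intervals of all drawn probe sets but that of Vasp include 0, and the chosen Sorbs2 probe set lies at 2.89.

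The normal cultures varied more than the CAF cultures in 7 of the 8 members, Vasp being the exception. The same was true of 71.1% of all genes. Tln1 had an SD of 0.12 in CAF and 0.47 in normal fibroblasts, and Palld had 0.12 in CAF and 0.52 in normal fibroblasts. CAF arrays carry the prefix ls only, while normal arrays carry both. Normal replicates 4 and 5, of prefix ls, had 12.21 and 12.74 in Tln1, where CAF arrays ran from 12.44 to 12.77. In Palld they had 12.77 and 13.54, against 13.32 to 13.65 on CAF arrays. Means of the vs and ls normal arrays were 12.65 and 12.48 in Tln1, 13.26 and 13.16 in Palld, and 10.69 and 10.13 in Sorbs3. The part of the prefix in the spread was not tested. Measured from the mean of its own group, normal replicate 1 stood high in Sorbs3, Zyx, Pxn, Tln1 and Palld, by 0.47 to 0.72, and normal replicates 3 and 4 stood low in Vcl, Tln1 and Palld, by -0.53 to -0.32. As a description over the 10 arrays, which share their normalisation, these deviations had a Pearson r of 0.93 between Tln1 and Palld (Spearman rho 0.82), of 0.79 between Vcl and Palld (rho 0.85) and of 0.76 between Vcl and Tln1 (rho 0.78). Without the 2 arrays farthest from the median of the first gene of each pair, the r values were 0.78, 0.78 and 0.80. The arrays left out were normal replicates 1 and 3 for Tln1, and CAF replicate 1 and normal replicate 3 for Vcl. Normal replicate 1, high in Palld and Tln1, thus stayed in both Vcl pairs. Sorbs2 deviated with Sorbs3 (r = 0.65, rho 0.84) and against Vasp (r = -0.58, rho -0.78), the highest and the lowest r of its 7 pairs; without normal replicates 2 and 3 these were 0.78 and -0.78.

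**Figure D4:**
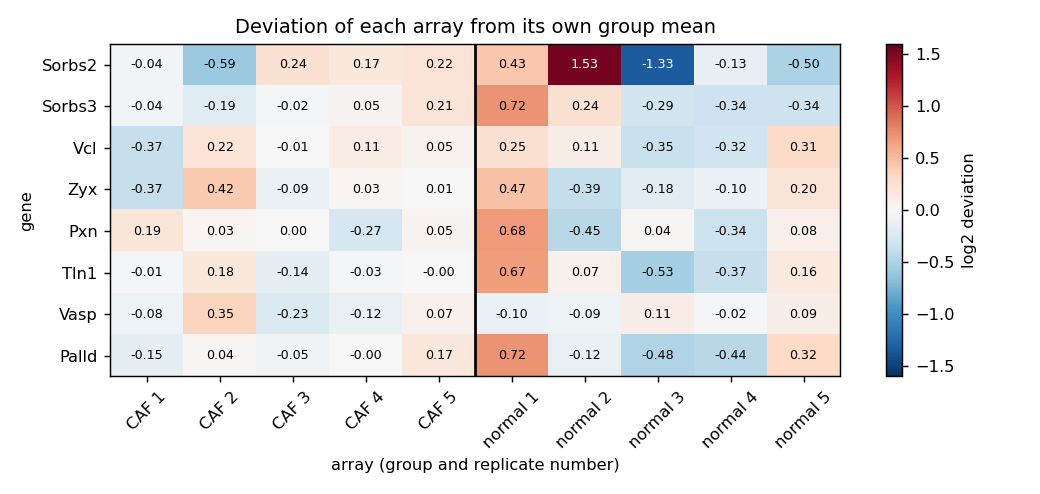
Deviation of each array from the mean of its own group (log2, colour and number) for the 8 genes (rows) on the 5 CAF and 5 normal arrays (columns). Normal replicate 1 is high in Tln1 and Palld, at 0.67 and 0.72, and the largest deviations are those of Sorbs2 on normal replicates 2 and 3, at 1.53 and -1.33.

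By the same measure over all genes, with sex-linked genes, clones and predicted genes passed over, the 4 profiles most like that of Sorbs2 were those of Cd55 (r = 0.98), a complement regulator, Ro60 (r = 0.98), an RNA-binding protein, Unkl (r = 0.97), a zinc finger gene, and Kctd4 (r = 0.97). Each r is over 10 arrays and, picked as the highest of all genes, describes likeness only. Cd55 was at 11.25 ± 0.67 in CAF and 8.82 ± 1.62 in normal fibroblasts, a difference of 2.42 ± 0.71 (SE; adjusted p = 0.103). The other 3 genes had differences of -0.13 to 0.49. Kctd4 was low, at 5.12 ± 0.08 in CAF and 5.24 ± 0.17 in normal fibroblasts (SD), values that may be background.

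Of 14 measured genes nearest in kind to the members, 0 rose or fell in limma, where 0.753% of all genes were called, 3 had an unadjusted p under 0.05, against 22.3% of all genes, and the median difference was -0.05 with 6 positive. Enah, the gene of Mena in the Ena/VASP family, leaned the other way from Vasp. Its level was 13.04, 13.05, 13.74, 13.06 and 13.14 on the CAF arrays, against 11.70, 12.72, 11.73, 12.22 and 12.57 on the normal arrays. The groups did not overlap, as in 2 of these 14 genes and 7.16% of all genes. The difference was 1.02 ± 0.23 (SE, 2.02-fold, adjusted p = 0.0668), or 0.81 with the ls and 1.15 with the vs normal arrays. The third family gene, Evl, had -0.11 ± 0.21 (adjusted p = 0.794). Among the LIM proteins related to zyxin, Limd1 had 0.35 ± 0.09 (adjusted p = 0.0860), also with no overlap. The other Limd1 probe set had 0.11 ± 0.09 (adjusted p = 0.494 among all probe sets). Wtip had -0.40 ± 0.13 (adjusted p = 0.124) and Ajuba, which also works at cell junctions, had -0.78 ± 0.43 (adjusted p = 0.309). Lpp, Trip6 and Fblim1, which share zyxin's place at adhesions, had 0.33, -0.0010 and -0.11. The paxillin relatives Tgfb1i1, known as Hic-5, and Lpxn had 0.08 and 0.55, and the talin relative Tln2 had -0.20. The palladin relatives of striated muscle, Mypn and Myot, had -0.14 and -0.11, and Ctnna1, alpha-catenin, which shares vinculin's fold, had 0.22. Adjusted p-values of the 9 genes from Lpp to Ctnna1 ran from 0.229 to 0.998.

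Other genes of the integrin to actin link mostly had positive differences without passing the test. Of 27 measured of 29, with Ptk2 and Nedd9 not analysed here, 0 rose or fell in limma, 8 had an unadjusted p under 0.05, all of them higher in CAF, and the median was 0.16 with 22 positive. For this list and the 3 that follow, the shares over all genes are again 0.753% called and 22.3% with an unadjusted p under 0.05, and the median over the genes above the median level is 0.08. Parvb, beta-parvin, which binds integrin-linked kinase, had 0.86 ± 0.23 (adjusted p = 0.0860). Tns3, a tensin, had 0.67 ± 0.16 (adjusted p = 0.0732). Its CAF arrays, at 12.993 to 13.511, barely cleared the normal arrays, at 12.176 to 12.985. The other Tns3 probe set had -0.16 ± 0.07 (adjusted p = 0.184 among all probe sets). Groups did not overlap in 3 of the 27 genes, against 7.16% of all genes. Ilk, integrin-linked kinase itself, had -0.21 ± 0.12 (adjusted p = 0.318), and Git1, a paxillin-binding scaffold, -0.17 ± 0.16 (adjusted p = 0.552). Of 14 integrin subunits measured of 15, 0 passed, 1 had an unadjusted p under 0.05 and 12 were positive, with a median of 0.33; Itga8 had 1.28 ± 0.92 (adjusted p = 0.431), Itga7 0.78 ± 0.62 (adjusted p = 0.484), Itga3 -0.44 ± 0.56 (adjusted p = 0.666) and Itgb8 -0.82 ± 0.34 (adjusted p = 0.196).

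Actin and stress fibre genes had a median nearer to 0, though single genes ran from -0.80 to 1.48. Of 35 measured of 36, 0 passed in limma, 2 had an unadjusted p under 0.05, and the median was 0.07 with 23 positive. Synpo2, an actin-bundling partner of alpha-actinin, had 1.48 ± 0.38 (2.79-fold; adjusted p = 0.0832), at 8.56 ± 0.82 in CAF and 7.08 ± 0.43 in normal fibroblasts. Myh10, nonmuscle myosin IIB, had -0.80 ± 0.32 (adjusted p = 0.182), Tagln2 -0.23 ± 0.18 (adjusted p = 0.477) and the LIM gene Fhl1 0.35 ± 0.32 (adjusted p = 0.544). Of 14 measured of 17 known partners of sorbin proteins, 0 passed, 2 had an unadjusted p under 0.05 and the median was 0.13 with 8 positive. Cbl, the ubiquitin ligase bound by sorbin SH3 domains, had 0.40 ± 0.10 (adjusted p = 0.0810), Rapgef1 0.40 ± 0.20 (adjusted p = 0.263), Synj2 -0.26 ± 0.19 (adjusted p = 0.440) and the raft protein Flot1 -0.65 ± 0.30 (adjusted p = 0.234). Over all genes 7777 of 18193 had a positive difference.

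**Figure D5:**
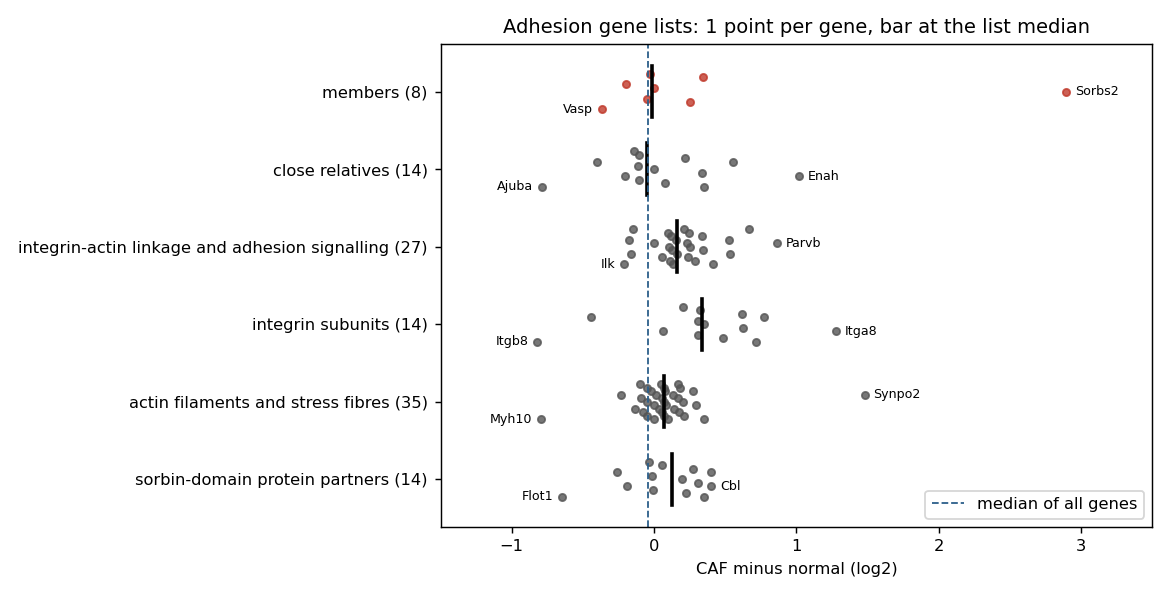
Difference in CAF minus normal (x axis, log2) for each gene of the 8 members and of 5 lists of related genes (rows, number of genes in brackets), with a bar at each list's median and the lowest and highest gene named; the dashed line is the median of all genes, -0.04, and genes above the median level had 0.08. List medians run from -0.05 to 0.33, and Sorbs2 at 2.89 lies beyond the highest gene of any other list, Synpo2 at 1.48. Sorbs2 was put among the members for its large difference, so its place here follows from that choice.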

How the data were processed

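Biotin-labelled cRNA from 6 ug of total RNA per culture was hybridised to 1-colour Affymetrix Mouse430_2 arrays, 5 CAF and 5 normal. The authors deposited log2 values, made with RMA in Affymetrix Expression Console, per the submitters' processing notes; versions are not given in the sources used here. RMA normalises across arrays and summarises each probe set, so differences are relative to the other genes of an array, and no detection call exists. Array medians without the control probe sets still did not overlap between the groups. They were 6.73 to 6.74 on CAF arrays and 6.76 to 6.79 on normal arrays. Of 45101 probe sets, 64 controls were left out, and 34945 of the others had 1 gene symbol, updated through the gene table of GRCm38.p6. Of the probe sets of a gene, that with the highest mean level was used. Groups and replicate numbers came from the titles.

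CAF and normal arrays were compared with limma 3.58.1 in R 4.3.3 (lmFit, eBayes, group as the only term), with Benjamini-Hochberg adjustment over 18193 genes and calls at an adjusted p under 0.05. Every adjusted p is from limma. The code was tested on simulated data. The number of arrays limits the precision.

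The members and the lists of related genes and markers were chosen with earlier results of these data known. Named genes were all members and close relatives, the 2 highest and 2 lowest differences of each other list, the 4 genes most like Sorbs2 and the 2 brightest fibroblast and macrophage markers. Further single markers were named after their values were seen. Alternatives covered scaling, probe set choice, a filter on dim genes, the variance model, array weights, the label prefix, a replicate block and leaving out each array. Comparing with the vs normal arrays alone was an addition made after seeing the data.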

Additional observations from a re-analysis of the deposited data

Results flagged for a closer look

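In 10 of 108 groups of 5 arrays checked, covering the members' probe sets and the named related genes, 1 array stood apart from the others by a gap over 0.71 of the group's range, where chance gives about 1 in 20. CAF replicate 1 was the low array in 4 of them: Tgfb1i1 at 12.47, Trip6 at 10.91, Fblim1 at 10.997 and Tns3 at 12.99. CAF replicate 4 was high in Tln2, at 10.14, and CAF replicate 3 was high in Enah, at 13.74. Among normal arrays, replicate 2 was high in Sorbs2 probe set 1441624_at, at 6.24, and in Myot, at 5.18, replicate 1 was high in Mypn, at 6.64, and replicate 3 was low in Tns3, at 12.18.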

How the results depend on the processing

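Zyx, Pxn and Palld kept their direction and did not pass in any of 21 alternatives. Sorbs2 was higher in CAF in all of them, by 2.56 to 3.27 without 1 array and by 0.88 as the mean of its probe sets, dim ones included. Vasp stayed lower in CAF, at -0.45 to -0.31 without 1 array, and passed with array weights (-0.41) and without CAF replicate 2. Tln1 changed sign after quantile normalisation (-0.0097), as the mean of its probe sets (-0.26) and against the vs normal arrays (-0.067), and was -0.13 to 0.17 without 1 array. Sorbs3 changed sign with arrays centred on their medians (0.011), array weights (0.19), the label prefix as a term (0.31) and the ls normal arrays alone (0.31), and was -0.11 to 0.15 without 1 array. Vcl was -0.14 to 0.045 without 1 array. The cause of these changes was not tested.

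The count of genes called was 285 (250 higher in CAF) with arrays centred on their medians, 92 (43 higher) after quantile normalisation and 137 (102 higher) as deposited. It was 605 with every probe set tested singly, 50 among the genes above the median level, 46 with trend and robust eBayes, 1597 with array weights, 1 against the ls normal arrays, and 0 to 166 without 1 array. With the label prefix as a term, 0 genes and 0 members passed in limma, where 2649 genes had an unadjusted p under 0.05. Members called numbered 2 with array weights and 0 to 2 without 1 array. Against the vs normal arrays 95 genes (86 higher in CAF) and 0 members were called. Same-numbered CAF and normal arrays had deviations correlated at -0.53 to 0.34, over 0.1 for 1 of 5 numbers, and 1 of 5 CAF arrays correlated best with its own number. These correlations over 5 numbers cannot show whether same-numbered arrays share a source. With the replicate block, 0 genes and 0 members passed in limma, where 3017 genes had an unadjusted p under 0.05.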

Other observations

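Single probe sets of related genes passed where the probe set chosen for the gene did not. When every probe set was tested singly, limma called 605 of 45037, or 1.34%. Enah, which has 6 probe sets, was higher in CAF by 1.40 ± 0.27 (SE) at 1421624_a_at (adjusted p = 0.0445), and its other probe sets besides the chosen one differed by 0.20 to 1.14. Cbl was higher by 0.57 ± 0.10 at 1455886_at (adjusted p = 0.0370) and differed by 0.35 ± 0.11 at 1450457_at. Synpo2 differed by 2.21 ± 0.48 (adjusted p = 0.0561), 1.24 ± 0.39 and 0.28 ± 0.20 at its other probe sets. These genes were singled out after their values were seen.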
